A study of Mus musculus with 34 samples.

Results

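The phagocyte NADPH oxidase (NOX2) is described here through the genes of 5 of its subunits, namely Cybb, Cyba, Ncf1, Ncf4 and Rac2. They were chosen by symbol, not by their values, from a table of 16389 genes measured by RNA sequencing of mouse brain tissue, and all 5 were in the table and among the 14710 genes that were tested. Testing required an FPKM (fragments per kilobase of transcript, scaled to the number of mapped reads) of at least 1 in at least 3 libraries. Cyba and Ncf1 reached this level in all 34 libraries, Ncf4 in 7 and Rac2 in 4. Cybb reached it in 13 libraries, of which 12 were GFP-BM REPOP libraries and 1 was a GFP-BM CON library, so that it passed the filter through the group in which it was highest.

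NOX2 carries electrons from NADPH across the membrane to oxygen and so makes superoxide, the first product of the respiratory burst with which neutrophils, monocytes and macrophages attack microbes. The catalytic core, gp91phox (Cybb), is held in the membrane by its partner p22phox (Cyba). On activation, cytosolic factors including p47phox (Ncf1) and p40phox (Ncf4) join the core together with a Rac GTPase, of which Rac2 is the form found mainly in blood cells. In the brain the complex is best known from microglia, the resident macrophages of the parenchyma.

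The study asked what follows when bone marrow-derived myeloid cells take the place of microglia in the brain. WT CON mice were vehicle-treated C57BL/6 mice that were neither irradiated nor transplanted. GFP-BM CON mice were C57BL/6 mice that received 1000 cGy of whole-body irradiation and bone marrow from CAG-EGFP donors, whose green fluorescent protein is driven by a promoter that is active in nearly all cells. GFP-BM REPOP mice received the same irradiation and marrow and, 3.5 months later, 600 ppm of PLX3397, an inhibitor of the receptor CSF1R on which microglia depend, for 14 days, and their brains were taken about 6 months afterwards. All recipients were male according to the methods, and the labels give no age. Irradiation and transplantation came together in both transplanted groups, so the effects of one and the other cannot be told apart. There were 4 libraries of each group in each region, except that the cortex had 3 from WT CON mice and the thalamus, dissected with the striatum, had 3 from GFP-BM CON mice. By the codes in the labels, the regions of a group were taken from the same set of mice. Each library held the RNA of a whole piece of tissue, in which a change in the number of cells and a change in RNA per cell cannot be told apart.

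The libraries held between 17085458 and 26011500 reads in the listed genes. They differed in a GC gap, the median log2 level of genes in the top decile of GC content minus that in the bottom decile. It was 0.753 to 1.238 in cortical WT CON, 0.429 to 0.583 in GFP-BM CON and 0.411 to 0.994 in GFP-BM REPOP. In the thalamus it was 1.093 to 3.649, 0.453 to 0.827 and 0.506 to 0.938. WT CON lay above both other groups in the thalamus and above GFP-BM CON in the cortex. A GC correction was run as an alternative for treatment comparisons only. Some hippocampal libraries stood apart in their tissue markers. The summed FPKM of 5 cortical markers was 73.6 to 191 in the 4 hippocampal GFP-BM REPOP libraries and 45.1 to 66.1 in the other 8 hippocampal libraries, and GFP-BM REPOP replicate 1, at 191, lay within the 150 to 196 of the cortex libraries. GFP-BM REPOP replicate 4 of the hippocampus had a summed FPKM of 867 for 6 markers of the thalamus and striatum, against 51.0 to 316 in the other hippocampal libraries. The sums of 6 hippocampal markers were 54.6 to 131 in hippocampal WT CON, 112 to 218 in GFP-BM CON and 57.1 to 202 in GFP-BM REPOP. In the WT CON cortex they were 74.6 to 81.5, so these markers did not set every hippocampal library above the cortex. Choroid plexus, the tissue that lines the ventricles, was unevenly present in the hippocampal libraries. The summed FPKM of its 4 markers was 6410 and 751 in WT CON replicates 1 and 3 and 1100, 4850 and 6270 in GFP-BM CON replicates 2, 3 and 4, against 28.7 to 282 in the other hippocampal libraries, all 4 of GFP-BM REPOP among them, and 25.1 to 624 in the cortex and thalamus. Hippocampal differences of the members are therefore also given without GFP-BM REPOP replicates 1 and 4 and, separately, without these 5 choroid-rich libraries. The first choice left GFP-BM REPOP libraries whose cortical markers, at 73.6 to 102, still lay above those of the other groups. The second choice left 2 WT CON libraries and 1 GFP-BM CON library, which was assumed to vary like the other groups.

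The 5 genes lie on 4 chromosomes of the mouse genome (GRCm38.p6). Cybb (Entrez 13058) spans chrX:9435252-9487766 on the minus strand, Cyba (13057) chr8:122424771-122432940 on the minus strand and Ncf1 (17969) chr5:134220053-134229628 on the minus strand. Ncf4 (17972) spans chr15:78244164-78262582 on the plus strand and Rac2 (19354) chr15:78559169-78572783 on the minus strand. Promoter sequence from RefSeq was matched for 3 of the 5 members, and the 250 bases before the annotated start are printed because these genes, which serve 1 enzyme, differed in how their RNA varied between groups. Capitals mark a pair of GAAA cores spaced by any 2 bases, the core of the elements bound by interferon regulatory factors, on either strand.
Cybb, chrX:9469325-9469574, minus strand: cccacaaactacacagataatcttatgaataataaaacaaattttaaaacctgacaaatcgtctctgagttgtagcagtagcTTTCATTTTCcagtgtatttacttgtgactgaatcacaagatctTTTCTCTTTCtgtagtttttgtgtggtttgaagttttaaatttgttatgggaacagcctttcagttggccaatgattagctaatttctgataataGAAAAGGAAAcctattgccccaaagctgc
Cyba, chr8:122432941-122433190, minus strand: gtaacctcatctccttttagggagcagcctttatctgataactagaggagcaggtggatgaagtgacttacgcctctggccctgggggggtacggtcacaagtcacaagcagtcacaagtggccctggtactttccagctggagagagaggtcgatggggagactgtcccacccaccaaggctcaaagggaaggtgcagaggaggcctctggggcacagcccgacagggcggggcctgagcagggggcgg
Ncf1, chr5:134229626-134229875, minus strand: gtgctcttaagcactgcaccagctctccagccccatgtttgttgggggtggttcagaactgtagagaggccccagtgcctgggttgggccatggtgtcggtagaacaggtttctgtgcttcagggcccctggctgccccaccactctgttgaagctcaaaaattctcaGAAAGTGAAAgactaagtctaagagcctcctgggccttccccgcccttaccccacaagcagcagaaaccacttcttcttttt
The Cybb window belongs to a transcript start inside the annotated gene, and its GC content was 34%, against 60.0% for Cyba, 54.4% for Ncf1 and a median of 52.4% over all 32851 windows of this length. It held 3 such pairs, at 168, 124 and 29 bases before the start. The Ncf1 window held 1 pair, at 82 bases before the start, and the Cyba window none. Over all windows, 2.98% held such a pair. Neither GAGGAA, a core of PU.1 sites, nor GGAA followed after any 2 bases by GAAA, the joint element of PU.1 and interferon regulatory factors, which can overlap the pair of GAAA cores, was found in the 3 windows on either strand, and they occurred in 23.3% and 2.3% of all windows. These are matches of letters only.

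Cybb, the catalytic subunit, was the member whose RNA differed most between the groups. In the cortex its FPKM was 0.311, 0.0914 and 0.104 in the WT CON libraries. It was 0.305, 0.610, 0.401 and 0.314 in the GFP-BM CON libraries and 1.82, 1.09, 1.98 and 2.58 in the GFP-BM REPOP libraries. The GFP-BM REPOP libraries all lay above the rest of the cortex libraries, while the lowest GFP-BM CON library lay just under the highest WT CON library. The means were 0.169 ± 0.124 (SD, n = 3), 0.407 ± 0.142 (n = 4) and 1.87 ± 0.612 (n = 4), a ratio of 11.1 between GFP-BM REPOP and WT CON. The difference was called by limma, with a log2 fold change of 2.90 (SE 0.34, 95% interval 2.15 to 3.66, adjusted p = 0.0032) on the scale of log2(FPKM + 0.1), where low values are compressed. Cybb was the only 1 of the 5 members called in this comparison, in which 0.734% of all tested genes were called, while 9.48% of genes did not overlap between these groups, Cybb and Ncf4 among them. The call of Cybb held in all 11 fits that left out 1 library, between 2.71 and 3.26.

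**Figure D1:**
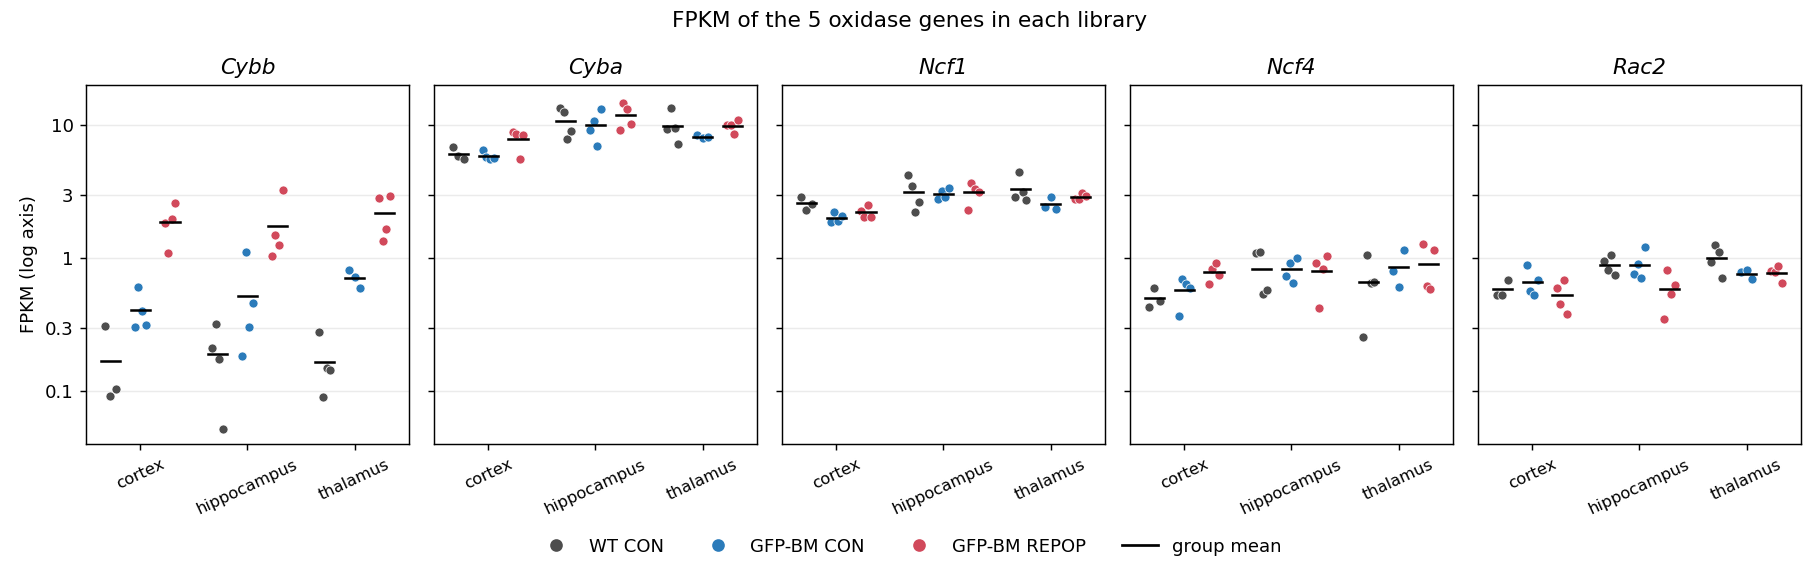
FPKM of the 5 members in each of the 34 libraries on a log axis, with 1 panel per gene, grouped by region and treatment, and a black line at each group mean. The Cybb group means are lowest in WT CON and highest in GFP-BM REPOP in each region, from 0.166 to 2.18 FPKM, while the groups of the other members lie close together.

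In the thalamus Cybb was at 0.280, 0.0909, 0.149 and 0.145 FPKM in WT CON. The GFP-BM CON libraries held 0.808, 0.727 and 0.593 and the GFP-BM REPOP libraries 2.81, 1.34, 1.65 and 2.92. The 3 groups were fully separate. The means of 0.166 ± 0.0805 (SD, n = 4), 0.709 ± 0.108 (n = 3) and 2.18 ± 0.805 (n = 4) put GFP-BM REPOP at 13.1 times and GFP-BM CON at 4.26 times the WT CON mean. GFP-BM REPOP was called higher than WT CON, with a log2 fold change of 3.07 (SE 0.30, 95% interval 2.41 to 3.73, limma adjusted p = 0.0019), again as the only 1 of the 5 members, beside 0.836% of all tested genes, and 18.8% of genes did not overlap between these groups. The call held in all 11 fits without 1 library.

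In the hippocampus the WT CON libraries were at 0.212, 0.317, 0.175 and 0.0519 FPKM of Cybb, the last of which rests on 5 reads. The GFP-BM CON libraries were at 0.182, 1.11, 0.301 and 0.464, and the GFP-BM REPOP libraries at 1.03, 1.49, 1.25 and 3.22. All GFP-BM REPOP libraries lay above those of WT CON, as was so in either direction for 4% of genes, but 1 GFP-BM CON library, at 1.11, lay above the lowest GFP-BM REPOP library. The log2 fold change between GFP-BM REPOP and WT CON was 2.64 (SE 0.50, 95% interval 1.56 to 3.72), a ratio of means of 9.26, and was not called (limma adjusted p = 0.094), as were none of the members in a comparison that called 0.0136% of genes. The highest value, 3.22, belongs to replicate 4, the library with the high striatal and thalamic markers. Without replicates 1 and 4 the log2 fold change was 2.43 (adjusted p = 0.526), and without the 5 choroid-rich libraries it was 2.75 (adjusted p = 0.61). A fit of all 9 groups shared the estimate of spread among the regions and took libraries of the same mouse as independent. In it the hippocampal difference passed the threshold (limma adjusted p = 0.00045). Fitted by region, the SE of Cybb in this comparison was larger for the hippocampus (0.50) than for the cortex (0.34) and thalamus (0.30).

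The transplanted mice that received no PLX3397 had mean Cybb levels between those of the other groups in each region. On the log2 scale, GFP-BM CON exceeded WT CON by 0.97 (95% interval 0.22 to 1.72) for the cortex, 0.96 (-0.12 to 2.04) for the hippocampus and 1.64 (0.93 to 2.35) for the thalamus. None of these was called (limma adjusted p = 0.20, 0.26 and 0.058), and no member was called in these comparisons, in which 0.32%, 0% and 0% of genes were called. At an unadjusted p under 0.05, limma counted 3517 genes (23.9%) in the hippocampus and 3045 (20.7%) in the thalamus. In the thalamus, where Cybb did not overlap between GFP-BM CON and WT CON, neither did 23.1% of all genes. In the hippocampus the GFP-BM CON mean rested on the choroid-rich libraries, without which the difference from WT CON was 0.17 (adjusted p = 0.99), with 1 GFP-BM CON library left at 0.182 FPKM. The thalamic difference was called without WT CON replicate 1 (log2 fold change 1.83, adjusted p = 0.0097) and with all 9 groups in 1 fit without an animal block (adjusted p = 0.0177).

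Between the transplanted groups, Cybb was higher with PLX3397 by 1.94 (95% interval 1.24 to 2.63) for the cortex, 1.68 (0.60 to 2.76) for the hippocampus and 1.43 (0.72 to 2.15) for the thalamus. These differences, ratios of means of 4.58, 3.40 and 3.07, did not pass the threshold (limma adjusted p = 0.059, 0.26 and 1.0). No member was called in these comparisons, which called 0.0476%, 0.0272% and 0% of genes. In the thalamus limma gave 139 genes (0.945%) an unadjusted p under 0.05, a share below that threshold itself. In the cortex and the thalamus the 2 groups did not overlap in Cybb, as was so for 3.09% and 4.56% of all genes. The cortical difference was called without GFP-BM REPOP replicate 2 (log2 fold change 2.16, adjusted p = 0.026) and with a pseudocount of 1, quantile normalization or a correction for GC content and length (adjusted p = 0.032, 0.036 and 0.036). The hippocampal difference was called with all 9 groups in 1 fit without an animal block (adjusted p = 0.0146). It came to 1.47 (adjusted p = 0.494) without replicates 1 and 4 and to 2.58 without the choroid-rich libraries.

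Cyba, the membrane partner that stabilizes the catalytic subunit, was the most abundant member in every library group, and none of its treatment differences was called. In the cortex its FPKM was 6.86, 5.84 and 5.57 in WT CON, 6.49, 5.76, 5.56 and 5.65 in GFP-BM CON, and 8.82, 8.63, 5.51 and 8.44 in GFP-BM REPOP. Of the GFP-BM REPOP libraries 3 lay above all others, and replicate 3 was the lowest of all cortex libraries, so the groups overlapped. The log2 fold change of GFP-BM REPOP against WT CON was 0.34 (95% interval 0.02 to 0.67, limma adjusted p = 0.33), and against GFP-BM CON it was 0.39 (0.09 to 0.69, adjusted p = 0.91). In the hippocampus the values were 13.5, 12.4, 7.89 and 8.97 in WT CON, 9.24, 10.7, 6.96 and 13.1 in GFP-BM CON, and 9.24, 14.6, 13.2 and 10.2 in GFP-BM REPOP. The 3 groups overlapped throughout, and without GFP-BM REPOP replicates 1 and 4 the log2 fold change against WT CON went from 0.15 to 0.41 (adjusted p = 0.73), and without the choroid-rich libraries it was 0.14 (adjusted p = 0.93). In the thalamus they were 9.27, 13.4, 9.54 and 7.15 in WT CON, 8.36, 8.01 and 8.14 in GFP-BM CON, and 9.97, 9.97, 8.54 and 10.9 in GFP-BM REPOP. There the GFP-BM REPOP libraries lay above the GFP-BM CON libraries, by 0.26 on the log2 scale (-0.13 to 0.65), a difference that was not called (adjusted p = 1.0) in a comparison where 4.56% of all genes did not overlap. They overlapped with WT CON.

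Ncf1, the organizer that links the cytosolic factors to the membrane, was at 2.90, 2.30 and 2.54 FPKM in cortical WT CON libraries, at 1.86, 2.22, 1.89 and 2.07 in GFP-BM CON, and at 2.25, 2.03, 2.51 and 2.03 in GFP-BM REPOP. The GFP-BM CON libraries lay below the WT CON libraries without overlap, where 16% of all genes did not overlap in either direction, with a log2 fold change of -0.34 (95% interval -0.60 to -0.08) that was not called (limma adjusted p = 0.20). In the hippocampus Ncf1 was at 4.21, 3.50, 2.20 and 2.63 in WT CON, 2.77, 3.21, 2.88 and 3.36 in GFP-BM CON, and 2.31, 3.70, 3.28 and 3.16 in GFP-BM REPOP. In the thalamus it was at 2.90, 4.45, 3.14 and 2.74 in WT CON, 2.42, 2.88 and 2.33 in GFP-BM CON, and 2.76, 2.78, 3.08 and 2.93 in GFP-BM REPOP. The groups overlapped in both regions, and without hippocampal GFP-BM REPOP replicates 1 and 4 the hippocampal log2 fold change against WT CON was 0.19 (adjusted p = 0.85), or 0.02 (adjusted p = 0.99) without the choroid-rich libraries. Its log2 fold changes between GFP-BM REPOP and WT CON were -0.22 (95% interval -0.48 to 0.05) for the cortex, 0.01 (-0.46 to 0.48) for the hippocampus and -0.16 (-0.51 to 0.19) for the thalamus, none of them called.

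Ncf4, which binds phosphoinositides and supports the burst at phagosomes, was measured with 7 to 42 reads per library, so that counting error alone was 21.8% at the median. In the cortex it was at 0.432, 0.598 and 0.480 FPKM in WT CON, 0.370, 0.699, 0.637 and 0.597 in GFP-BM CON, and 0.642, 0.830, 0.924 and 0.752 in GFP-BM REPOP. All GFP-BM REPOP libraries lay above those of WT CON, where 9.48% of all genes did not overlap in either direction. The log2 fold change of 0.56 (95% interval 0.07 to 1.04) was not called (limma adjusted p = 0.30). In the hippocampus the values of 1.1, 1.1, 0.541 and 0.577 in WT CON, 0.738, 0.923, 0.647 and 0.998 in GFP-BM CON, and 0.912, 0.418, 0.831 and 1.04 in GFP-BM REPOP overlapped. So did those of the thalamus, at 0.257, 1.06, 0.650 and 0.664 in WT CON, 0.804, 0.603 and 1.16 in GFP-BM CON, and 1.29, 0.615, 0.583 and 1.16 in GFP-BM REPOP. The log2 fold changes of GFP-BM REPOP against WT CON were -0.04 (95% interval -0.75 to 0.66) in the hippocampus, or -0.36 without GFP-BM REPOP replicates 1 and 4 and -0.06 without the choroid-rich libraries, and 0.46 (-0.39 to 1.31) in the thalamus.

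Rac2, the GTPase that switches the assembled oxidase on, held 19 to 86 reads per library. In the cortex it was at 0.532, 0.529 and 0.690 FPKM in WT CON, 0.886, 0.569, 0.525 and 0.683 in GFP-BM CON, and 0.598, 0.454, 0.689 and 0.378 in GFP-BM REPOP, with overlap between all groups. In the hippocampus it was at 0.954, 0.816, 1.05 and 0.747 in WT CON, 0.761, 0.898, 0.708 and 1.20 in GFP-BM CON, and 0.346, 0.819, 0.536 and 0.623 in GFP-BM REPOP. There 3 of the 4 GFP-BM REPOP libraries lay below all others and replicate 2 lay among them. The log2 fold change was -0.58 against WT CON (95% interval -1.18 to 0.02, limma adjusted p = 0.52) and -0.57 against GFP-BM CON (-1.16 to 0.03, adjusted p = 0.45), and these came to -0.37 and -0.35 without replicates 1 and 4 and to -0.42 and -0.39 without the choroid-rich libraries. In the thalamus the values of 0.930, 1.26, 1.11 and 0.712 in WT CON, 0.783, 0.815 and 0.693 in GFP-BM CON, and 0.806, 0.790, 0.865 and 0.645 in GFP-BM REPOP overlapped, with a log2 fold change of -0.31 (-0.75 to 0.12) between GFP-BM REPOP and WT CON. No library of GFP-BM REPOP reached an FPKM of 1 for Rac2.

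**Figure D2:**
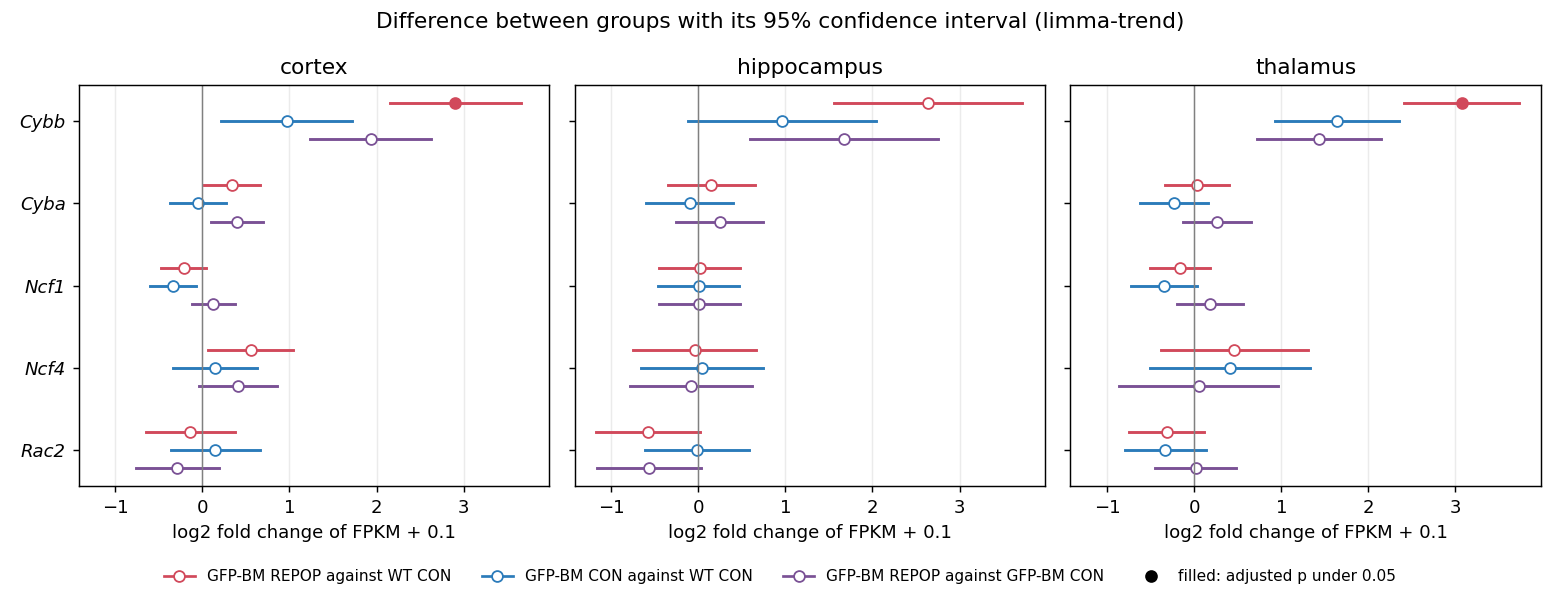
Log2 fold changes of the 5 members in the 3 comparisons and 3 regions, with 95% intervals, where filled points mark an adjusted p under 0.05. The 2 filled points are Cybb in GFP-BM REPOP against WT CON, at 2.90 in the cortex and 3.07 in the thalamus, and the other 4 members lie between -0.58 and 0.56 in every comparison.

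No member was shown to differ in its treatment effect between any pair of regions when that difference was tested across all genes with the animal as a random block. Of the 9 contrasts, 5 called 0% of all genes, and the other 4 called 0.034%, 0.034%, 0.177% and 0.0272%. For Cybb, the difference between GFP-BM REPOP and WT CON in the hippocampus minus that in the cortex was -0.28 (95% interval -1.53 to 0.97, limma adjusted p = 0.97) and that in the thalamus minus that in the cortex was 0.16 (-1.09 to 1.4, adjusted p = 0.92). The hippocampal value came to -0.51 (adjusted p = 0.92) without GFP-BM REPOP replicates 1 and 4 and to -0.16 (adjusted p = 0.98) without the choroid-rich libraries.

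The order of the members by FPKM also differed between the groups. FPKM is scaled by length but not corrected for GC content, and the GC gap differed between libraries and groups. Its part in the order and in the shares below was not tested. In cortical WT CON libraries Cyba was highest with a mean of 6.09, followed by Ncf1 at 2.58, Rac2 at 0.584, Ncf4 at 0.503 and Cybb at 0.169. Rac2 and Ncf4 overlapped in range and so did not differ beyond their spread. In cortical GFP-BM REPOP libraries the means were 7.85 for Cyba, 2.20 for Ncf1, 1.87 for Cybb, 0.787 for Ncf4 and 0.530 for Rac2, and Cybb and Ncf1 overlapped in range. Taken within each library, Cybb FPKM was 2.66% ± 1.64 (SD, n = 3) of Cyba FPKM in cortical WT CON, 7.01% ± 2.60 (n = 4) in GFP-BM CON and 24.9% ± 10.4 (n = 4) in GFP-BM REPOP. In the hippocampus these shares were 1.73%, 5.05% and 15.7%, of which the last came to 9.84% without GFP-BM REPOP replicates 1 and 4 and the first 2 to 1.57% and 1.97% without the choroid-rich libraries, and in the thalamus 1.82%, 8.67% and 21.9%. Against Ncf1, Cybb went from 6.27% in WT CON over 20.1% in GFP-BM CON to 85.2% in GFP-BM REPOP in the cortex, from 6.00% over 16.4% to 56.3% in the hippocampus and from 5.44% over 28.0% to 75.7% in the thalamus. The hippocampal shares of Ncf1 came to 39.2% in GFP-BM REPOP without replicates 1 and 4, and to 5.52% in WT CON and 6.57% in GFP-BM CON without the choroid-rich libraries. FPKM of RNA does not give the amounts of the proteins, which were not measured in these libraries.

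Among WT CON mice, Cyba was higher in the hippocampus than in the cortex, with means of 10.7 ± 2.68 (SD, n = 4) and 6.09 ± 0.677 (n = 3), a log2 difference of 0.78 (limma adjusted p = 0.0065). Cyba was also higher in the thalamus than in the cortex, by 0.66 (adjusted p = 0.024), as was Rac2, by 0.68 (adjusted p = 0.036). Regions differed in many genes, with 36.9% of all genes called between hippocampus and cortex, 30% between thalamus and cortex and 17.7% between thalamus and hippocampus, where no member was called. Cybb differed little between the regions of WT CON mice, by 0.12 between hippocampus and cortex and 0.04 between thalamus and cortex (adjusted p = 0.85 and 0.95). The hippocampal call of Cyba held in all 7 fits without 1 of the libraries compared and without the choroid-rich libraries (log2 difference 0.79, adjusted p = 0.013). The thalamic call of Cyba was lost without cortex replicate 2 or 3 or thalamus replicate 2 (adjusted p up to 0.109). That of Rac2 was lost without any 1 of the 3 cortex replicates or thalamus replicate 2 or 3 (adjusted p up to 0.121). No correction for GC content was run on these region contrasts. The GC gap was 0.753 to 1.238 in the WT CON cortex, 1.75 to 3.389 in the hippocampus and 1.093 to 3.649 in the thalamus. Its part in the region calls was not tested.

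To set the members against the myeloid content of each library, their log2 level was taken relative to the mean of 10 pan-myeloid genes such as Aif1, Tyrobp and C1qa. On this scale the Cybb difference between GFP-BM REPOP and WT CON was 2.94 for the cortex, 2.61 for the hippocampus and 3.13 for the thalamus, with an exact permutation p of 0.0286 in each region, the smallest the design allows, and 0.129 adjusted over 45 tests. The groups did not overlap in Cybb in any region, as was so on this scale for 4.49%, 2.16% and 14.9% of all tested genes. For Rac2, hippocampal GFP-BM REPOP libraries differed by -0.61 from WT CON and by -0.51 from GFP-BM CON, again without overlap and with an exact permutation p of 0.0286 that did not pass after adjustment (0.129). In the second of these comparisons 3.82% of all genes did not overlap. Without hippocampal GFP-BM REPOP replicates 1 and 4, which leaves too few libraries for the test, the hippocampal Cybb difference was 2.28 and those of Rac2 were -0.51 and -0.42. Without the choroid-rich libraries they were 2.73, -0.43 and -0.44. None of the 45 tests passed after adjustment. At the smallest p the design allows, a pass would have needed most of the 45 to reach it. The adjusted values therefore cannot decide about single genes. The pan-myeloid list itself had a median log2 fold change of -0.02 (cortex), 0.08 (hippocampus) and -0.16 (thalamus) in this comparison, where the median over all genes was 0.016, 0.004 and -0.054. Of its 9 tested genes, Csf1r and Itgam were called lower in the cortex and Itgam in the thalamus.

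Markers of monocytes and macrophages summed to higher levels in GFP-BM REPOP. The mean log2 levels of the few lymphocyte and neutrophil markers in the table were not higher there than in WT CON. They are too few to speak for these cell types. Of 7 monocyte and macrophage markers 5 were in the table, and Ccr2 and Ly6c2 were not. The summed FPKM of the 5 in the cortex was 9.97 to 12.8 in WT CON, 13.5 to 22.3 in GFP-BM CON and 59.7 to 97.4 in GFP-BM REPOP. In the hippocampus the ranges were 11.5 to 37.3, 17.4 to 83.9 and 50.6 to 135, and in the thalamus 18.7 to 43.4, 42.2 to 55.9 and 112 to 194. These sums separated GFP-BM REPOP from WT CON in every region and from GFP-BM CON in the cortex and thalamus. Lyz2, Ms4a7 and Mrc1 of this list are in the monocyte signature that the study built from GFP-BM REPOP against WT CON in this series. The separation of those groups is therefore no independent support. Most of each GFP-BM REPOP sum was Lyz2, at 51.7 to 85.0 FPKM in the cortex and 98.7 to 175 in the thalamus. Without hippocampal GFP-BM REPOP replicates 1 and 4 the hippocampal GFP-BM REPOP sums were 89.7 and 116, and without the choroid-rich libraries those of WT CON were 11.5 and 26.0 and that of GFP-BM CON 17.4. Of the 4 tested, Lyz2 (lysozyme), Ms4a7 and Mrc1 (the mannose receptor) were called between GFP-BM REPOP and WT CON in the cortex and thalamus, all higher in GFP-BM REPOP, and Cd74 was not called. Of the homeostatic microglial genes, 7 were examined and summed to 41.9 to 51.1 in cortical WT CON libraries, 41.4 to 47.1 in GFP-BM CON and 29.1 to 33.6 in GFP-BM REPOP. In the thalamus the sums were 40.0 to 49.1, 37.3 to 40.7 and 31.8 to 35.9, and in the hippocampus 41.9 to 72.1, 46.4 to 49.2 and 32 to 44.7, where GFP-BM REPOP overlapped with WT CON. Tmem119 and Siglech were called between GFP-BM REPOP and WT CON in the cortex, both lower in GFP-BM REPOP, and 0 of the 7 were called in that comparison in the hippocampus or thalamus. Of 9 lymphocyte markers 2 were in the table, Cd4 and Trac. Their mean log2 level differed by -0.71 (cortex), -0.78 (hippocampus) and -0.26 (thalamus) between GFP-BM REPOP and WT CON. The summed FPKM of these genes was 3.52 to 6.53 in WT CON and 1.35 to 3.32 in GFP-BM REPOP in the cortex, 1.76 to 5.42 and 0.752 to 16.7 in the hippocampus, and 3.18 to 7.36 and 2.78 to 4.16 in the thalamus. Of 8 neutrophil markers 2 were in the table, S100a9 and Ngp. These differed by -0.78, -0.36 and -0.39 in mean log2 level and summed to 0.0862 to 3.39 over all libraries, with Ngp at 0 in 11 libraries. The part of these cell types in the Cybb result was not tested.

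**Figure D3:**
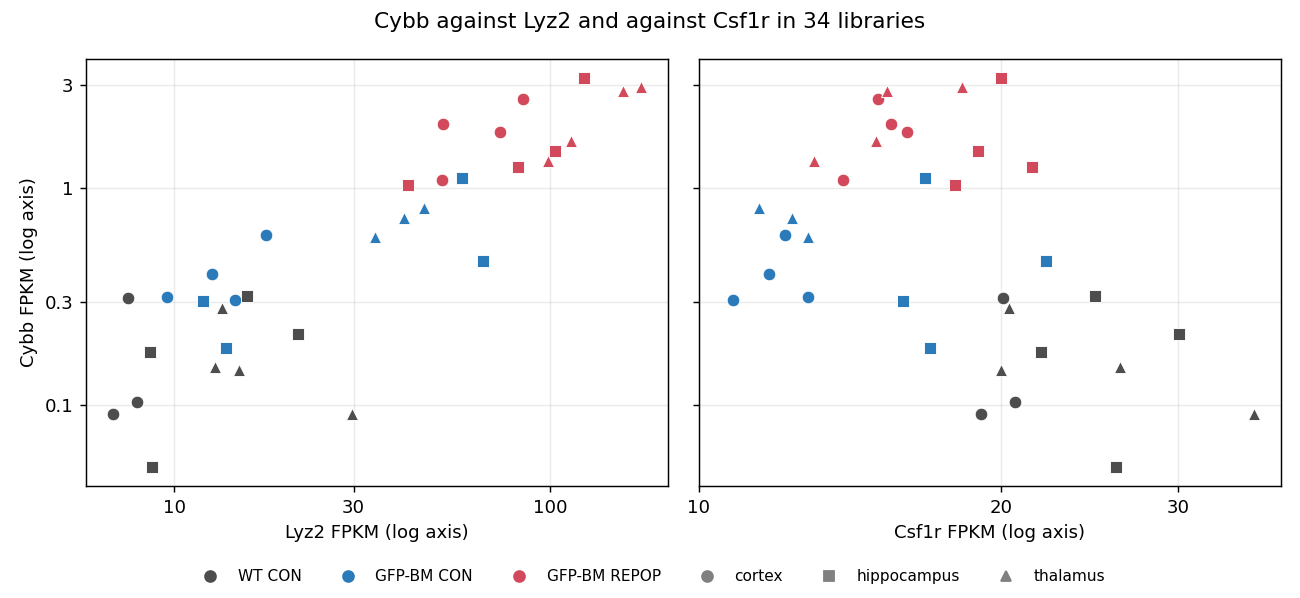
Cybb FPKM against Lyz2 FPKM (left) and against Csf1r FPKM (right) in the 34 libraries, both axes logarithmic, with colours for treatment and symbols for region. Cybb and Lyz2 lie along 1 rising band (r = 0.934 after the regional means are taken off), whereas Cybb and Csf1r do not (r = -0.446).

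The genes whose pattern was most like each member's were found by Pearson's r of log2(FPKM + 0.1) over the 34 libraries after each region's mean was taken off. The libraries share animals and treatment groups, so these values describe the pattern and carry no test. For Cybb they were Ms4a6c (0.949), Apobec1 (0.937), Mrc1 (0.937), Lyz2 (0.934) and Gpr65 (0.931). All of these but Gpr65 are in the monocyte signature that the study built from GFP-BM REPOP against WT CON. Over all groups, r therefore also holds that contrast. Within the 12 GFP-BM REPOP libraries alone, with regional means taken off, r between Cybb and Lyz2 was 0.81 and between Cybb and Mrc1 0.91. Within the 11 GFP-BM CON libraries these were 0.78 and 0.79. Within the 11 WT CON libraries, where Cybb rested on few reads, they were 0.13 and 0.74. Over the nearest genes of Cybb and Ms4a7, r ran from 0.60 to 0.91 in GFP-BM REPOP. It ran from 0.48 to 0.80 in GFP-BM CON and from -0.23 to 0.74 in WT CON. For Cyba the nearest genes were Fcer1g (0.833), C1qc (0.805), C1qa (0.797), Tyrobp (0.789) and Isca2 (0.787), most of them known from microglia and other macrophages. For Ncf1 they were Ctsz (0.793), Ctsa (0.756), C1qb (0.736), Ppp1r15a (0.729) and Gpt (0.712). The nearest genes of Ncf4 were Farp2 (0.649), Slc11a1 (0.621), Txnrd2 (0.591), Ctnnd1 (0.579) and Fcgr2b (0.572). Those of Rac2 were Crhr2 (0.651), Itpk1 (0.634), Akip1 (0.621), Olfml3 (0.618) and Shq1 (0.612). The genes nearest to Ncf4 and Rac2 were less alike to them than those nearest to the other members. Between members, r was highest for Cyba and Ncf1 (0.544) and lowest for Cybb and Rac2 (-0.441). Without the hippocampal libraries that stood apart, of both kinds, r over the other 27 was 0.951 for Cybb and Lyz2, 0.793 for Cyba and Fcer1g, 0.76 for Ncf1 and Ctsz, 0.645 for Ncf4 and Farp2 and 0.446 for Rac2 and Crhr2.

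The other pathway genes examined gave no call in any of the 9 treatment comparisons. Other genes of the complex include Rac1 and Rap1a, the maturation factors Cybc1 and Nrros, and the proton channel Hvcn1 that balances the charge moved by the oxidase. None of these 5 was called in either direction, and their median log2 fold change of GFP-BM REPOP against WT CON was 0.0043 for the cortex, -0.22 for the hippocampus and -0.13 for the thalamus. The widest difference in this list was that of Rap1a in the thalamus, at 0.97 (95% interval 0.18 to 1.75, limma adjusted p = 0.16) against WT CON in GFP-BM REPOP and 1.01 (adjusted p = 0.20) in GFP-BM CON.

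Of 9 other NADPH oxidase genes, 7, among them Nox1 and Nox4, were not in the table, Duox2 fell under the filter, and Noxo1 was tested and not called. Of 11 upstream activators, 9 were tested, including the exchange factor Vav1 and the kinases Syk and Prkcd, and none was called. Their medians were -0.07, -0.02 and -0.11 in the 3 regions of GFP-BM REPOP against WT CON, and the range in the hippocampus ran from -1.24 to 0.78, where the lowest was Prkcd, which is also a marker of the thalamus. All 12 genes of superoxide and peroxide handling, among them Sod1, Cat and Hmox1, were tested and none was called, with medians of 0.01, 0.09 and -0.20. Of 6 transcription factors of phagocyte genes, 5 were tested and none was called. Spi1, which encodes PU.1, had log2 fold changes of 0.08, 0.28 and -0.11, and Irf8 of -0.01, 0.21 and -0.12.

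Between regions of WT CON mice, where 36.9% of all genes were called between hippocampus and cortex, some pathway genes were called as well. Of the complex genes, Rac1, Cybc1 and Hvcn1 were higher in the hippocampus than in the cortex, by 0.23, 0.31 and 0.75 on the log2 scale, and Rac1 and Hvcn1 were lower in the thalamus than in the hippocampus. Of the activators, the kinase Prkcd and the phospholipase Plcg2 were higher and Prkcb lower in the hippocampus than in the cortex, and Prkcd was higher and Prkcb lower in the thalamus than in the cortex. Of the genes that handle superoxide and peroxide, Prdx2, Txnrd1 and Cat (catalase) were higher and Sod2 lower in the hippocampus, and Sod1, Gpx1, Txnrd1 and Cat were higher in the thalamus, each against the cortex. The transcription factors Cebpb and Cebpa were higher in the hippocampus than in the cortex and thalamus. Without the choroid-rich libraries, the hippocampal calls that held were those of Rac1, Hvcn1, Prkcd, Prkcb and Txnrd1 against the cortex, and Nrros, at 0.55 higher in the hippocampus, was called besides.

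**Figure D4:**
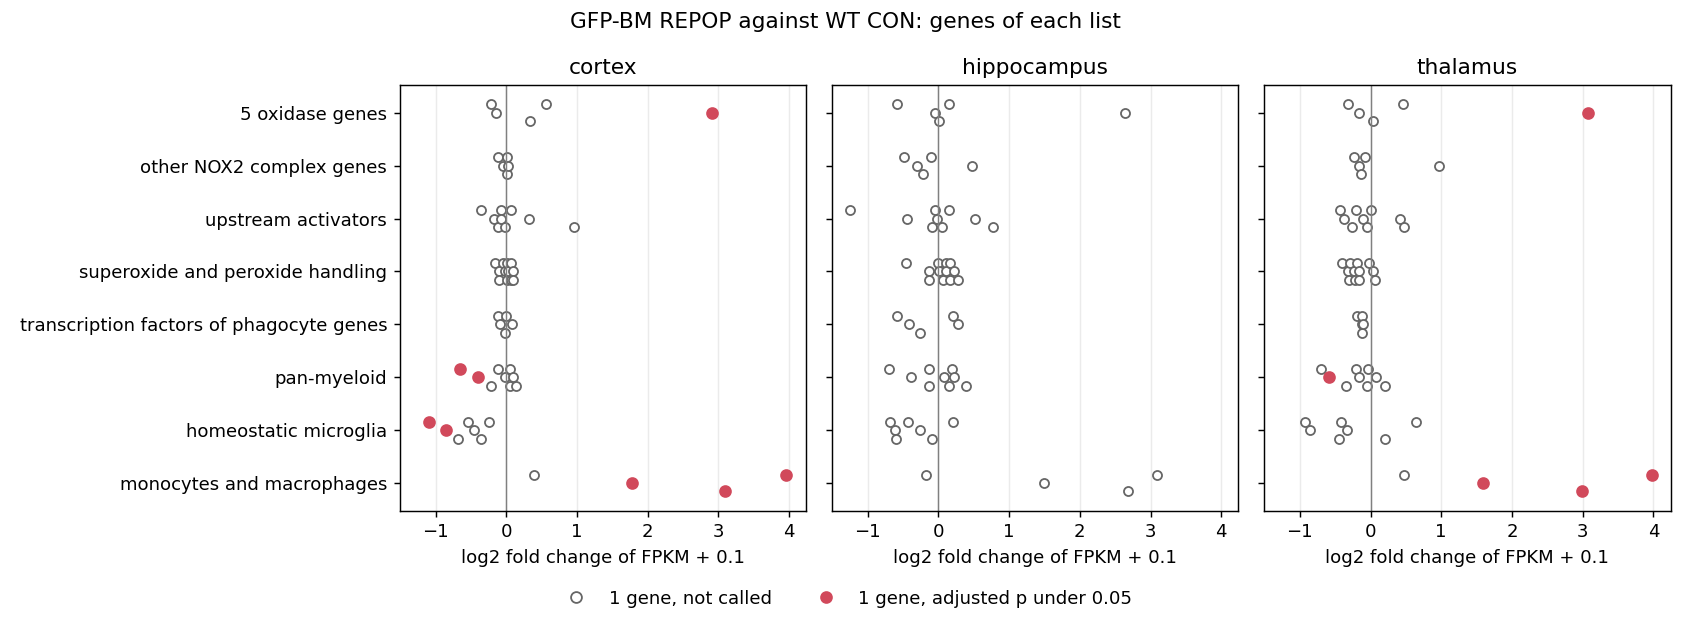
Log2 fold changes of GFP-BM REPOP against WT CON in the 3 regions for the genes of each list, 1 point per gene, with filled points at an adjusted p under 0.05. Outside the members, the filled points are in the pan-myeloid, homeostatic microglial and monocyte and macrophage lists, and the lists of other complex genes, activators, superoxide handling and transcription factors have none.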

How the data were processed

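RNA was sequenced from 34 libraries of microdissected mouse brain regions. According to the submitters' processing notes, the authors used STAR, featureCounts, edgeR and limma with mm10, and the deposited values are FPKM per gene. Each gene's FPKM values were whole multiples of 1 read's worth in 100% of cases (tolerance 0.01 reads), so reads were recovered for counting error and for limma voom as an alternative. The reads are not independent molecules, and counting error covers sampling of reads only.

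Groups came from the labels. Nothing in the labels gives batches, and the instrument of each library is not given in the sources used here. Of 15053 genes with an FPKM of at least 1 in at least 3 libraries, 343 of other biotypes were left out and 14710 tested on log2(FPKM + 0.1) with limma 3.58.1 (R 4.3.3), trended variances, 1 fit of 3 groups per region, two-sided, with Benjamini-Hochberg adjustment over all genes and calls at an adjusted p under 0.05. Region contrasts used all 9 groups and the animal as a random block (correlation -0.038). The alternative that put all 9 groups in 1 fit for the treatment comparisons had no animal block. Single values were compared by exact permutation (Python 3.11.15, scipy 1.17.1). Scripts were tested on simulated data.

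The members and gene lists were chosen with earlier results of these data known, and 2 genes of the lists are not reported here. The text names all 5 members, every gene of the pathway lists called between regions of WT CON (none was called between treatments) and, for each member, the 5 genes most correlated with it. Single genes of the marker and pathway lists that were not called, and the motifs, were picked as examples. Alternatives were other pseudocounts, filters, scalings and fits, the replicate number as a block, a correction for GC content and length, and leaving out libraries. Chosen after the data were seen were the fits without 1 library for the regions of WT CON, and the fits without either set of hippocampal libraries that stood apart. RefSeq sequences and positions are of GRCm38.p6, the assembly that mm10 is made from.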

Additional observations from a re-analysis of the deposited data

Results flagged for a closer look

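Cyba in cortical GFP-BM REPOP libraries had 1 value that lay apart from the other 3: replicate 3 was at 5.51 FPKM, and its gap to the next library was 0.886 of the whole range of the group, above Dixon's 95% critical value of 0.829 for 4 libraries. It was 1 of 35 groups of 4 examined, where chance gives about 1 in 20.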

How the results depend on the processing

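The Cybb difference between GFP-BM REPOP and WT CON kept its direction and its call in every alternative in which Cybb was tested, 10 for the cortex and 11 for the thalamus, with log2 fold changes of 1.27 and 1.41 at a pseudocount of 1, which compresses low values, and of up to 3.62 and 3.72 with voom on the recovered reads. Those of the thalamus include the stricter filter, a regional mean FPKM of at least 1. Cybb passed it through GFP-BM REPOP, at a mean of 2.18 against 0.166 in WT CON and 0.709 in GFP-BM CON, so that setting is no separate support. The stricter filter removed Cybb, Ncf4 and Rac2 in the cortex and hippocampus and Ncf4 and Rac2 in the thalamus, and of Cyba and Ncf1, the members it left in the cortex, 0 were called there. The number of members called rose from 0 to 1, by Cybb in each case, for the cortex between the transplanted groups with a pseudocount of 1, quantile normalization or correction for GC and length, and with all 9 groups in 1 fit for both GFP-BM REPOP comparisons in the hippocampus and for GFP-BM CON against WT CON in the thalamus. The cause was not tested. Without 1 library at a time, that number ran from 0 to 1 for the cortex between the transplanted groups and for GFP-BM CON against WT CON in the thalamus, and from 0 to 2 for thalamus against cortex in WT CON mice.

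Of the 9 Cybb treatment differences, 0 changed sign under any alternative. Of the 36 differences of the other 4 members, 17 changed sign under an alternative other than leaving out a library, none of them larger than 0.34 in size, and 0 were called under any in which the gene was tested. Between GFP-BM REPOP and WT CON, correction for GC and length turned Ncf4 to 0.12 in the hippocampus and Ncf1 and Rac2 to 0.19 and 0.021 in the thalamus, and quantile normalization turned Ncf1 to -0.052 in the hippocampus. Without 1 library, hippocampal Ncf1 ran from -0.14 to 0.17 and Ncf4 from -0.20 to 0.20 in that comparison. Within WT CON, Cybb ran from -0.091 to 0.48 between hippocampus and cortex, from -0.15 to 0.41 between thalamus and cortex, and from -0.36 to 0.14 between thalamus and hippocampus. Without the 5 choroid-rich hippocampal libraries the last of these turned to 0.038 from -0.07, and the Cybb difference between the transplanted groups, taken in the hippocampus minus the cortex, turned to 0.65 from -0.26. Neither was called. Relative to the myeloid list, 17 of 45 differences changed sign with Csf1r alone as the reference or a pseudocount of 1, none of those of Cybb between GFP-BM REPOP and WT CON.

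The number of all genes called depended more on the fit. Over the alternatives other than leaving out a library, GFP-BM REPOP against WT CON called 27 to 192 genes in the cortex (108 as reported), 0 to 411 in the hippocampus (2) and 11 to 1954 in the thalamus (123). GFP-BM CON against WT CON called 0 to 128 (47), 0 to 2849 (0) and 0 to 1347 (0), and the comparison of the transplanted groups called 1 to 16 (7), 0 to 665 (4) and 0 to 1 (0). Libraries of the same replicate number came from different animals, and their deviations correlated between -0.433 and 0.49, with no comparison in which every pair was above 0.1. With the replicate number as a block, Cybb stayed called between GFP-BM REPOP and WT CON in the cortex (adjusted p = 0.036) and the thalamus (adjusted p = 0.023), and the block changed the call of no member. Reads were few for Ncf4, at 7 to 42 per library, and for Cybb in WT CON, at 5 to 33, and their intervals hold counting error together with the spread between animals, which were not separated.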
